A study of Mus musculus with 6 samples.

Results

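Expression of 10 genes of microglia, the resident macrophages of the brain, was followed in the cortex of Ybx1 conditional knockout (cKO) and control mouse embryos at E18.5, shortly before birth. They were taken by gene symbol from the deposited table as a sign of microglial content: the receptors Csf1r, Cx3cr1, P2ry12 and Trem2, the surface protein gene Tmem119, the adaptor gene Tyrobp, the actin-binding protein gene Aif1 (Iba1), and the complement chain genes C1qa, C1qb and C1qc. All 10 were among the 17348 genes of the table, and all 10 were among the 13570 genes that passed the filter on low counts. The data were mRNA libraries of cortex, 3 from cKO and 3 from control embryos, numbered 1 to 3 in each group. The cKO embryos carried Nestin-Cre and floxed Ybx1 alleles (Nestin-Cre, Ybx1 fl/fl), on C57BL/6J-derived stock. The control libraries are labelled WT. The paper's RNA-seq methods call them wild type littermates, and elsewhere its controls are Ybx1 fl/fl mice without Cre. Whether a library held the cortex of a single embryo is not stated, so the p-values measure the spread between these libraries.

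Microglia arise from precursors in the yolk sac and enter the embryonic brain from outside, whereas cortical neurons, astrocytes and oligodendrocytes descend from neural progenitors. Nestin-Cre acts in neural progenitors and their progeny, a lineage to which microglia do not belong. Csf1r signalling keeps microglia alive, Cx3cr1 receives the neuronal ligand fractalkine, and C1q starts the classical complement cascade, which tags material for uptake by phagocytes. In bulk tissue, fewer microglia and less RNA per microglial cell cannot be told apart.

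No microglia gene was called in either direction. With edgeR's quasi-likelihood test and Benjamini-Hochberg adjustment over all 13570 genes, 0 of 10 had an adjusted p-value under 0.05, beside 10 genes or 0.0737% of all genes tested. At an unadjusted p under 0.05 the count was also 0 of 10, beside 6.62% of all genes, and DESeq2 gave 0 of 10 at either threshold, with the adjusted p of 4 members not computed. The log2 fold change of cKO over control was above 0 in 7 members and below 0 in 3, with a median of 0.0727, beside 0.00272 over all genes tested. For 8 of the 10 members the 95% interval of the difference lay within 0.6-fold and 1.91-fold, so neither a doubling nor a halving was inside it. For Aif1 and Trem2 the intervals were wider.

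The libraries themselves need a short account. Their totals ranged from 15091951 to 16885451 estimated counts, of which the 10 members together held 850 to 1283 per library, or 0.00652% of all counts. Ybx1 was at 956 to 1297 CPM (counts scaled to library size by the TMM method) in the control libraries and at 24.0 to 24.9 CPM in the cKO libraries, a mean of 2.25% of control, so the labels matched the targeted gene. Control replicate 2 stood apart from the other libraries. Relative to control replicates 1 and 3, its genes in the shortest quintile of transcript length (126 to 1909 bases) were at 1.32-fold at the median and those in the longest quintile (5334 to 123179 bases) at 0.742-fold. The 4 Y-linked genes tested were lower in cKO, with a summed level of 215 to 295 CPM in control and 0.929 to 1.47 CPM in cKO libraries, so a difference in embryo sex and the difference in genotype cannot be told apart. Markers of the labelled tissue were present, with 8 cortical neuron genes summing to between 4083 and 4671 TPM per library.

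A sequence feature shared by some members was looked for in the promoters. PU.1, encoded by Spi1, is the transcription factor on which the microglial lineage depends, and it binds a purine-rich box with the letters GAGGAA, whose GGAA core is common to the ETS family. RefSeq promoter windows of GRCm38.p6, from 250 bases before to 50 after an annotated start, were matched for 6 of the 10 members. GAGGAA on either strand was present in 4 of these 6, beside 31.3% of the 27025 genes with a window. The share was 29.9% of the 10794 tested genes with a window. As some genes have several windows, it was 28.3% of all 32851 windows, beside 4 of the 6 windows of the members. The matches follow with their flanks in the direction of transcription, with the box in capitals (TTCCTC where it lies on the opposite strand). The window of Aif1 is chr17:35176042-35176071, that of C1qb chr4:136886213-136886242, that of C1qc chr4:136893090-136893119 (all of genes on the minus strand), and that of Trem2 chr17:48346349-48346378 on the plus strand.
Aif1: ataggcacccagTTCCTCcatcctattgtt
C1qb: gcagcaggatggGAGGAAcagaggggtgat
C1qc: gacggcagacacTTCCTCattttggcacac
Trem2: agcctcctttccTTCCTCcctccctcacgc
The boxes were centred at positions -4, -27, -190 and -37 from the start that the promoter window was drawn around. For Aif1 and C1qc this start lies inside the gene span given for them, and the Aif1 box itself lies inside that span. The windows of Cx3cr1 and P2ry12 had no match. A match is a string of letters and not a measured binding site.

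**Figure D1:**
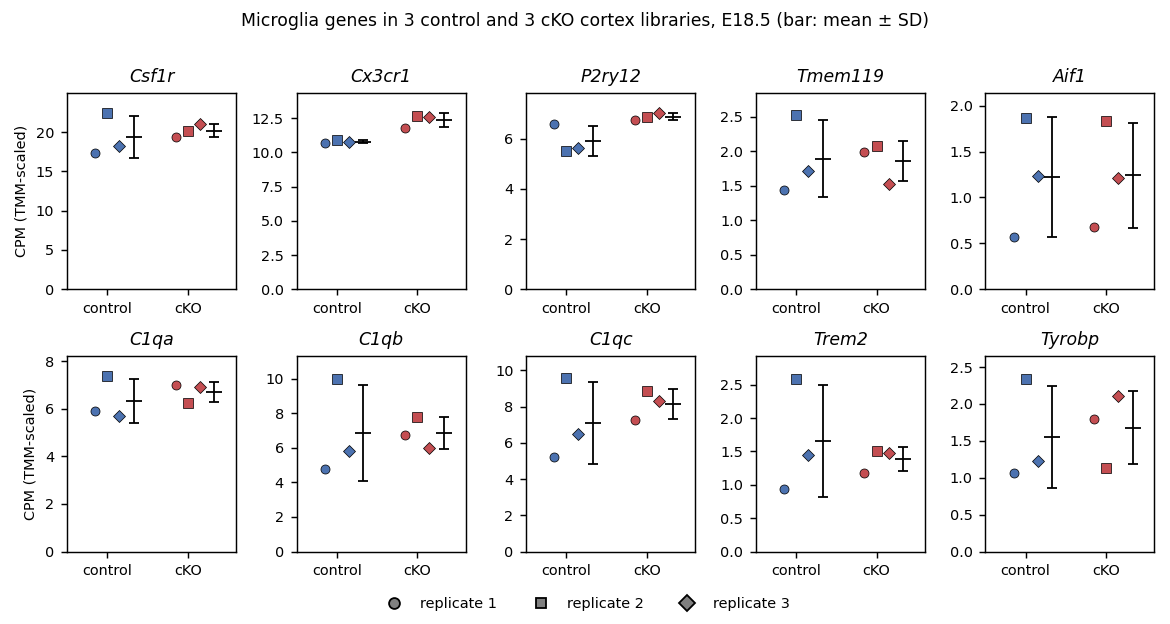
Level of each microglia gene in TMM-scaled CPM (y axis, from 0, a separate scale per gene) in the 3 control (blue) and 3 cKO (red) libraries, with the mean and SD of each group as a bar. Marker shapes give the replicate number. Control replicate 2 (blue square) is the highest of the 6 libraries in 8 of the 10 genes, and of these 10 genes only Cx3cr1 and P2ry12 have groups that do not overlap.

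Csf1r and Cx3cr1 had the most reads among the members, and their levels in the groups lay close together. Csf1r, the receptor for Csf1 and Il34, had 17.4, 22.4 and 18.2 CPM in control replicates 1 to 3 and 19.4, 20.1 and 21.1 CPM in cKO replicates 1 to 3. The cKO libraries fell inside the control range. The log2 fold change was 0.0615 (standard error 0.138, 95% interval -0.25 to 0.37, adjusted p = 0.943 in edgeR), which is 0.84-fold to 1.29-fold.

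Cx3cr1 and P2ry12 were the members in which every cKO library was above every control library. Cx3cr1, the fractalkine receptor (chromosome 9, 120048683 to 120068296 in RefSeq on GRCm38, as all positions here), had 10.7, 10.9 and 10.8 CPM in control and 11.8, 12.7 and 12.6 CPM in cKO libraries. P2ry12, a purine receptor through which microglia sense released nucleotides (chromosome 3, 59216271 to 59262985), had 6.58, 5.50 and 5.62 CPM in control and 6.75, 6.86 and 7.02 CPM in cKO libraries. The separation was small in both genes, 1.14-fold for Cx3cr1 and 1.17-fold for P2ry12. In 2 of 10 members every cKO library was above the controls, beside 7.35% of all genes tested, and in 0 members it was below. The log2 fold changes were 0.19 for Cx3cr1 (95% interval -0.10 to 0.49, adjusted p = 0.844) and 0.22 for P2ry12 (95% interval -0.15 to 0.59, adjusted p = 0.854) in edgeR's quasi-likelihood test. The exact two-sided permutation p was 0.1 for each, the smallest that 3 libraries against 3 allow.

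Tmem119, whose product is used as a marker of resident microglia (chromosome 5, 113793729 to 113800396), was the member with the lowest level per transcript length. It had 1.44, 2.52 and 1.71 CPM in control and 1.98, 2.08 and 1.53 CPM in cKO libraries. The groups overlapped, and the log2 fold change was -0.0266 (95% interval -0.66 to 0.61, adjusted p = 0.989 in edgeR). On 23 to 43 counts per library, a 1.5-fold rise was inside this interval.

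Aif1 encodes Iba1, the protein most often stained to count microglia (chromosome 17, 35170986 to 35176083). It had 0.564, 1.87 and 1.23 CPM in control and 0.681, 1.83 and 1.21 CPM in cKO libraries. In this gene replicate 1 was lowest and replicate 2 highest in both groups. Over all tested genes, same-numbered libraries had correlations of 0.0884, 0.0615 and 0.23. The group means of Aif1 were 1.22 ± 0.655 and 1.24 ± 0.573 CPM (SD, n = 3). The counts behind these levels were small, from 9 in control replicate 1 (exact 95% Poisson interval 4.12 to 17.1) to 32 in control replicate 2 (21.9 to 45.2). These intervals do not overlap, and they cover counting error only. The log2 fold change was 0.00783 with an interval of -1.07 to 1.08, the widest among the 10 members, and a 2-fold difference in either direction was inside it.

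The complement genes C1qa, C1qb and C1qc encode the A, B and C chains that together form C1q. They lie next to each other on chromosome 4 of GRCm38, C1qb from 136880126 to 136886200, C1qc from 136889801 to 136892936 and C1qa from 136895916 to 136898844 (the submitters' processing notes name the same build). C1qa had 5.89, 7.38 and 5.69 CPM in control and 7, 6.23 and 6.90 CPM in cKO libraries. C1qb had 4.76, 10 and 5.82 CPM in control and 6.75, 7.80 and 6 CPM in cKO libraries. C1qc had 5.20, 9.60 and 6.51 CPM in control and 7.24, 8.87 and 8.30 CPM in cKO libraries. In all of these chains control replicate 2 was the highest library of the 6, and the cKO libraries lay between it and control replicate 1. The log2 fold changes were 0.0838 for C1qa (95% interval -0.31 to 0.48), -0.00761 for C1qb (-0.63 to 0.61) and 0.19 for C1qc (-0.33 to 0.72), and edgeR gave adjusted p-values of 0.937, 0.997 and 0.903 in that order.

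The measured levels of the chains relative to each other varied by library. As shares of their summed TPM (a scale that divides by transcript length before setting all libraries to a common sum), C1qa made up 27.1% to 37.0%, C1qb 27.4% to 36.0% and C1qc 33.8% to 40.2% over the 6 libraries. C1qb was the smallest share in control replicate 1, at 29.1%, and C1qa was the smallest in control replicate 2, at 27.3%. In cKO replicate 2 C1qa made up 27.1% and C1qc 40%, and in cKO replicate 3 C1qb made up 27.4% and C1qc 40.2%. Each chain had 76 to 171 counts per library, and the counting error of these shares was not computed. The summed C1q level was 45.0, 65.8 and 53.1 TPM in control and 64.3, 69.7 and 64.3 TPM in cKO libraries, and the groups overlapped.

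Trem2 and Tyrobp form a receptor complex, Trem2 binding lipids and apolipoproteins and Tyrobp (Dap12) passing the signal on through its cytoplasmic motif. Trem2 lies on chromosome 17 (48346401 to 48352276) and Tyrobp on chromosome 7 (30413782 to 30417582). Trem2 had 0.940, 2.58 and 1.44 CPM in control and 1.18, 1.51 and 1.47 CPM in cKO libraries. Tyrobp had 1.07, 2.34 and 1.23 CPM in control and 1.80, 1.13 and 2.11 CPM in cKO libraries. Control replicate 2 was the highest of the 6 libraries in both genes, and the groups overlapped. Trem2 had the lowest log2 fold change of the members, -0.26 (95% interval -1.10 to 0.57, adjusted p = 0.916 in edgeR). That of Tyrobp was 0.10 (95% interval -0.73 to 0.94, adjusted p = 0.967). Both rested on few reads, 15 to 44 counts per library for Trem2 and 17 to 40 for Tyrobp.

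**Figure D2:**
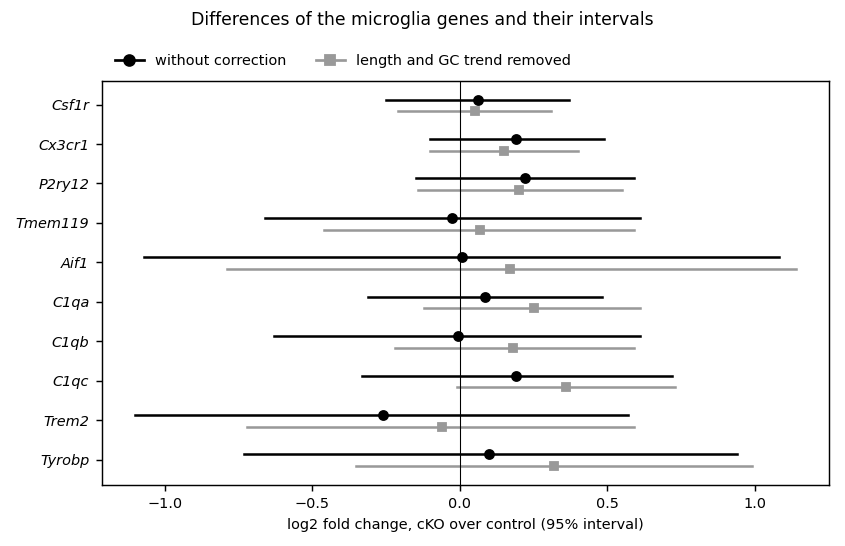
Log2 fold change of cKO over control (x axis) with its 95% interval for each of the 10 microglia genes, from edgeR's quasi-likelihood fit (black circles) and from the same fit after a trend on transcript length and GC content was removed from each library (grey squares). Every interval holds 0 in both fits. Without the correction, the narrowest is -0.10 to 0.49 for Cx3cr1 and the widest -1.07 to 1.08 for Aif1.

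Per transcript length, the C1q chain genes had the highest mean levels of the members and Tmem119 the lowest, in both groups. In control cortex the mean levels were 19.7 TPM for C1qc, 17.8 for C1qb, 17.1 for C1qa, 11.6 for Tyrobp, 11.5 for Csf1r, 6.67 for Cx3cr1, 6.01 for P2ry12, 4.32 for Trem2, 4.01 for Aif1 and 2.18 for Tmem119. Of the neighbours in this order, C1qa was above Tyrobp and Csf1r was above Cx3cr1 in every control library, and the other neighbours overlapped. In cKO cortex C1qc led at 25.5 ± 2.51 TPM (SD, n = 3) and Tmem119 was again last at 2.42 ± 0.373 TPM. At 19.7 TPM, C1qc was exceeded by 43.3% of the genes in the control table, and Tmem119 was exceeded by 69.7%.

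The groups stood differently to each other on the length-scaled values. On the authors' TPM scale every cKO library was above every control library for 4 members, Csf1r, Cx3cr1, P2ry12 and C1qa, against 2 in CPM. On that scale 19.2% of all tested genes were also above control in every cKO library, and the median log2 ratio of TPM (pseudocount 1) over all tested genes was 0.13. For Csf1r the TPM levels were 10.7, 12.1 and 11.6 in control and 12.9, 13.2 and 13.9 in cKO libraries, so that the groups parted in TPM and overlapped in CPM. C1qa did likewise, at 16.7, 17.9 and 16.7 TPM in control and 21.4, 18.9 and 20.8 TPM in cKO libraries. Summed over the 10 members, the level was 84.5, 119 and 99.1 TPM in control and 118, 123 and 124 TPM in cKO libraries. In CPM the sum was 54.6, 75.1 and 58.2 in control and 64.6, 69.2 and 68.2 in cKO libraries. Every cKO sum lay below that of control replicate 2 in CPM, and above those of control replicates 1 and 3 on both scales.

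Control replicate 2 had high levels of most microglia genes. Among the 3 control libraries it was the highest for 9 members, all but P2ry12, and control replicate 1 was the lowest for 8. Short transcripts were among the highest in it. Trem2 was 2.17-fold, Aif1 2.08-fold, Tyrobp 2.04-fold and C1qb 1.89-fold of the mean of the other controls, on transcripts of 1088, 875, 597 and 1088 bases. Of the longer transcripts, Csf1r was 1.26-fold, Cx3cr1 1.01-fold and P2ry12 0.902-fold, on 4701, 4493 and 2344 bases. C1qa, at 1040 bases, was 1.27-fold and so close to Csf1r, and Tmem119, at 2242 bases, was 1.6-fold. The shortest quintile, with the median of 1.32-fold given above, holds 6 members. Counted from the shortest, Tmem119 and P2ry12 lie in quintile 2, with a median of 1.14-fold. Csf1r and Cx3cr1 lie in quintile 4, with a median of 0.907-fold. Tmem119, Csf1r and Cx3cr1 were above the median of their quintile, and P2ry12 was below it.

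**Figure D3:**
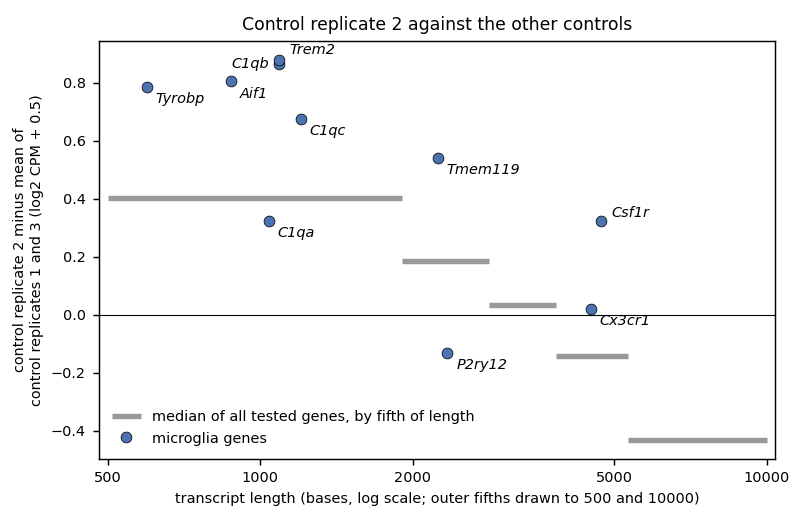
Difference between control replicate 2 and the mean of control replicates 1 and 3 (y axis, log2 of CPM plus 0.5) against transcript length in bases (x axis, log scale) for the 10 microglia genes (circles), with the median of all tested genes in each quintile of length as grey bars. The bars fall from 0.404 in the shortest to -0.431 in the longest quintile, and 5 of the 6 members in the shortest quintile lie above their bar.

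Without control replicate 2, an alternative chosen after seeing the data for the overlap of groups, every cKO library was above both remaining controls for 6 members, namely Csf1r, Cx3cr1, P2ry12, C1qa, C1qb and C1qc. The same held for 15% of all tested genes. All 10 log2 fold changes were then above 0, from 0.171 for P2ry12 to 0.545 for Tyrobp. C1qc had the smallest p, with a log2 fold change of 0.477 (standard error 0.18, unadjusted p = 0.0229, adjusted p = 0.313 in edgeR), so that 1 of 10 members was under an unadjusted 0.05, beside 12.1% of all genes in that fit, and 0 of 10 were called. Removing a trend on transcript length and GC content from each library, with all 6 libraries kept, gave log2 fold changes above 0 in 9 members, with a median of 0.178 beside -0.00791 over all genes. In that fit C1qc was at 0.36 (95% interval -0.01 to 0.73, adjusted p = 0.391) and 0 of 10 members had an unadjusted p under 0.05, beside 13.4% of all genes.

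The other genes known from microglia and their signalling were read from lists, and none was called. Of 12 further microglia-enriched genes, all tested, 8 had a log2 fold change above 0, with a median of 0.0711. Slco2b1, a transporter gene, had 10.7, 13.6 and 12.9 CPM in control and 15.5, 15.2 and 14.9 CPM in cKO libraries. Its cKO libraries were all above the controls, at a log2 fold change of 0.29 (95% interval -0.03 to 0.61, adjusted p = 0.79). Cd33 had a log2 fold change of 0.67 on 8 to 24 counts per library (adjusted p = 0.802).

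Upstream of the receptors, the ligand genes showed no call. Csf1 was at 6.5 ± 0.554 and 7.12 ± 0.41 TPM, Il34 at 1.43 ± 0.534 and 1.82 ± 0.407 TPM, and the fractalkine gene Cx3cl1 at 8.52 ± 1.05 and 9.89 ± 0.541 TPM in control and cKO cortex (SD, n = 3). In the edgeR fit on counts their log2 fold changes were -0.04, 0.15 and 0.05. TPM ran higher in cKO over all tested genes, at the median log2 ratio of 0.13 given above. The Trem2 ligand Apoe was the most abundant ligand gene, at 119 ± 36.5 and 134 ± 28 TPM, and its CPM levels of 57.6, 80.2 and 36.8 in control spanned the 52.0 to 72.9 of the cKO libraries. In all, 0 of 7 ligand genes were called and 5 were above 0 (median 0.0535). Of the transcription factor genes, 0 of the 7 tested were called and 3 were above 0 (median -0.0575). Spi1 had a mean of 2 ± 0.352 TPM in control cortex and 1.91 ± 0.383 TPM in cKO cortex.

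Downstream of Tyrobp, 0 of 8 tested signalling genes were called and 5 were above 0 (median 0.102). Syk, the kinase recruited by Tyrobp, was at 2.74 ± 0.577 and 2.79 ± 0.315 TPM in control and cKO cortex (SD, n = 3). Inpp5d, the phosphatase that counters this pathway, was at 2.08 ± 0.106 and 2.63 ± 0.144 TPM. In the edgeR fit on counts the log2 fold changes were -0.12 for Syk and 0.22 for Inpp5d (adjusted p = 0.922 and 0.857). Pik3cg had the smallest p, with a log2 fold change of 0.55 on 20 to 39 counts per library (adjusted p = 0.795 in edgeR).

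Of the 14 other complement genes, 6 did not pass the filter on low counts. C3 had 5 to 11 counts per library, and the C1 protease gene C1ra had at most 3. Of the 8 tested, 0 were called and 6 were above 0 (median 0.229). Megf10, a phagocytic receptor gene of astrocytes whose product binds C1q, had the smallest p, with 20.7, 12 and 16.7 CPM in control and 26.1, 24.2 and 25.5 CPM in cKO libraries. Its groups were apart, and the log2 fold change was 0.62 (95% interval 0.19 to 1.04, unadjusted p = 0.00931, adjusted p = 0.512 in edgeR). After the length and GC correction its adjusted p was 0.0789.

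Genes of general leukocyte and myeloid function were called in 0 of 18 tested, with 14 above 0 and a median of 0.104. Their summed level was 106 to 126 CPM in control and 110 to 119 CPM in cKO libraries. Laptm5, a lysosomal membrane protein gene of leukocytes, was at 11.5 ± 1.01 and 13.4 ± 0.41 TPM, and the protease gene Ctss was at 18.8 ± 6.86 and 21.2 ± 1.01 TPM (SD, n = 3). In the edgeR fit on counts their log2 fold changes were 0.05 and 0.04. Much of the summed level was Coro1a, with 38.4, 60 and 34.6 CPM in control and 35.8, 37.8 and 35.5 CPM in cKO libraries. Its mean in control cortex was 68.2 TPM, above the levels of Laptm5 and Ctss. The part of cells other than leukocytes in it was not tested. Coro1a also had the smallest p of this list, at a log2 fold change of -0.29 (adjusted p = 0.846 in edgeR). Genes of early postnatal and disease-associated microglia were called in 0 of 7 tested, namely Spp1, Lpl, Igf1, Cd63, Fabp5, Axl and Ctsb (median 0.0107). Fabp5, Ctsb and Cd63 had means of 992, 251 and 81.8 TPM in control cortex, beside 19.7 TPM for C1qc, the highest of the members. The part of other cells in these levels was not tested. Spp1 had 13 to 26 counts per library, while Gpnmb, Itgax, Clec7a, Cst7 and Lgals3 did not pass the filter.

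Of 14 cytokine and sensor genes, 9 did not pass the filter. Il1b had at most 1 count, Tnf at most 2 and Il6 at most 3 in any library, where 3 counts were taken as the detection floor. Tlr7, a sensor of single-stranded RNA, had the most reads of the list, with 103 to 145 counts per library (log2 fold change -0.02). Of the 5 tested, 0 were called and 3 were above 0 (median 0.312). Nos2 had the smallest p, with a log2 fold change of 0.54 on 12 to 22 counts per library (adjusted p = 0.796 in edgeR). Its cKO libraries were all above the controls in CPM. Interferon response genes were called in 0 of 6 tested, and 6 of 6 were below 0 (median -0.36). Among them Bst2 had 0.940, 1.82 and 3.70 CPM in control and 0.681, 0.629 and 1.53 CPM in cKO libraries, where the groups overlapped (log2 fold change -1.17, 95% interval -2.37 to 0.04, adjusted p = 0.764). The summed level of the list was 14.5 to 36.6 CPM in control and 15.8 to 20.2 CPM in cKO libraries.

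Macrophages of the meninges and vessels share genes with microglia, so their markers were read beside the members. Of the 12 listed, 11 were in the table and 2 passed the filter. Cd163 and Cbr2 were at 0 in every control library and had at most 1 and 2 counts in cKO libraries, and Pf4, Lyve1 and Folr2 had at most 5 counts in any library. The summed level of the list was 13.8 to 16.3 CPM in control and 18.1 to 20.0 CPM in cKO libraries, and the groups were apart. Most of this sum was Stab1, which endothelium also expresses, with 12.3, 13.4 and 14 CPM in control and 15.8, 16.9 and 16.5 CPM in cKO libraries (log2 fold change 0.31, unadjusted p = 0.0374, adjusted p = 0.71 in edgeR). Mrc1, the other tested gene, was at 0.56 ± 0.137 and 0.817 ± 0.139 TPM (SD, n = 3). In the edgeR fit on counts its log2 fold change was 0.39 (adjusted p = 0.854). The part of these cells in the levels of Cx3cr1 and P2ry12 was not tested.

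No vessel gene was called. Endothelial genes summed to 274 to 288 CPM in control and 288 to 366 CPM in cKO libraries, with 7 of 9 tested above 0, and Cdh5, the endothelial cadherin, had the smallest p (log2 fold change 0.41, unadjusted p = 0.00988, adjusted p = 0.514 in edgeR). Pericyte genes summed to 201 to 288 CPM and 261 to 294 CPM, with 8 of 8 above 0 (median 0.193). Cortical neuron genes summed to 4427 to 4558 CPM in control and 3739 to 4170 CPM in cKO libraries, with 2 of 8 above 0 and 0 called. In TPM these sums overlapped, at 4443 to 4671 in control and 4083 to 4589 in cKO libraries. On either scale 0 of the 8 genes had every cKO library below every control library. Erythroid genes summed to 983 to 1350 CPM in control and 998 to 1216 CPM in cKO libraries. Blood monocyte and neutrophil genes summed to at most 3.84 CPM and lymphocyte genes to at most 0.629 CPM, with 0 genes of either list passing the filter. Cell content itself was not measured, and its part in these sums and in the levels of the microglia genes was not tested.

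**Figure D4:**
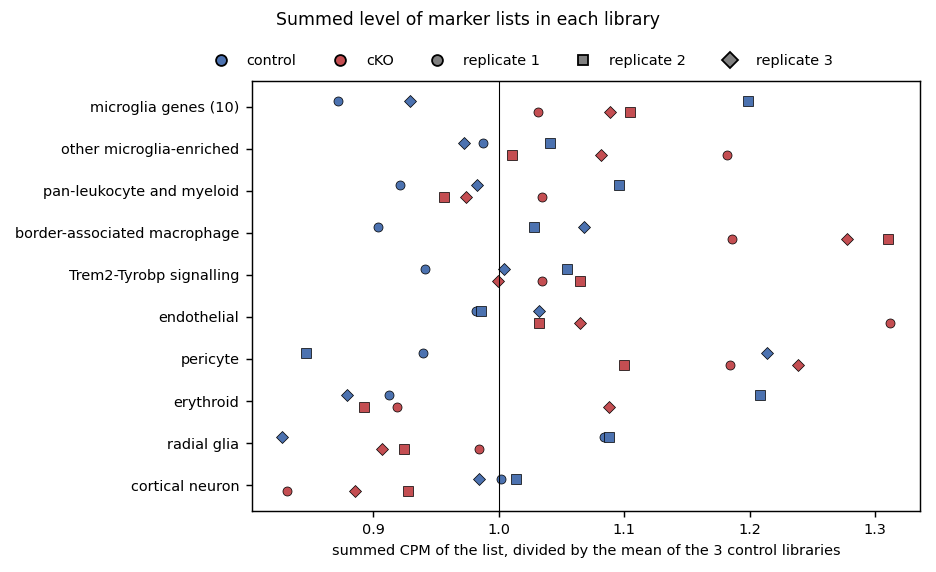
Summed CPM of 10 of the gene lists (rows) in the 6 libraries, divided by the mean of the 3 control libraries (x axis), with control in blue, cKO in red and marker shapes for replicate numbers. The cKO libraries lie between control replicates 3 and 2 for the 10 microglia genes, above all controls for border-associated macrophage genes and below all controls for cortical neuron genes. For the cortical neuron genes the groups overlap in TPM.

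Markers of astrocytes, oligodendrocyte precursors, radial glia, meningeal fibroblasts and choroid plexus were read as well, and 0 genes of these lists were called. Astrocyte genes were above 0 in 3 of 6 tested, with Aqp4 at a log2 fold change of 0.74 (unadjusted p = 0.0392, adjusted p = 0.718 in edgeR). Oligodendrocyte precursor genes were above 0 in 0 of 5 (median -0.26), radial glia genes in 2 of 7 and meningeal fibroblast genes in 4 of 5. Choroid plexus genes summed to at most 1.11 CPM in any library, and none passed the filter.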

How the data were processed

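For RNA-seq, cortices were lysed in Trizol and mRNA libraries were sequenced on the DNBSEQ platform. Of the 27 columns in the table deposited by the authors, 18 were read. These hold estimated counts, TPM and FPKM values per gene and library, and the authors' group means were not used. The deposited estimated counts (89.4% whole numbers) were not scaled between libraries, the authors' TPM values were scaled by length to a common sum, and the authors' FPKM values by length and library total. The submitters' processing notes name HISAT2 2.2.1, Bowtie2 2.4.5, RSEM 1.3.1 and GRCm38 (mm10), without their roles. Annotation and strandedness are not given in the sources used here.

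Estimated counts were rounded, filtered with filterByExpr, scaled by TMM and tested in R 4.3.3 with the quasi-likelihood method of edgeR 4.0.16, with p-values adjusted by Benjamini-Hochberg over all tested genes. Standard errors and 95% intervals were derived from the F statistic. TPM values served as levels per length, and FPKM values only to check transcript lengths. A floor of 3 counts (0.178 to 0.199 CPM) and Poisson intervals cover counting error only. The common biological coefficient of variation was 0.147. Replicates of a group differed by more than sampling noise (chi-square per degree of freedom 3.51 to 65.4). The fit was tested on simulated counts.

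The replicate number was not used as a block, since same-numbered libraries had correlations of 0.0884, 0.0615 and 0.23. Alternatives were that block, RLE size factors, DESeq2 1.42.0, other filters, a smooth trend (mgcv 1.9.3) on length and GC of the longest coding transcript in GENCODE M21 (98.6% of genes), and each library left out. The members and gene lists were chosen with earlier results of these data known. The rule for naming took from each list the called genes, or else the 2 tested genes of smallest p and the gene of highest mean TPM, and the text gives those most tied to microglia. Some genes the rule names are not reported here. Csf1, Il34, Cx3cl1, Spi1, Syk, C3, C1ra, Laptm5, Ctss, Spp1, Lpl, Cd63 and Ctsb were named for role or level after their values were seen. So were the cytokine genes, and the macrophage and disease-associated genes at low counts. Other experiments of the paper, at other ages or in knockdown or RIP-seq samples, are not used here. Figures were drawn with matplotlib 3.10.9.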

Additional observations from a re-analysis of the deposited data

How the results depend on the processing

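None of the 10 microglia genes was called at an adjusted p under 0.05 in any fit. The count was 0 with the replicate block, RLE size factors, DESeq2, other filters, the length and GC correction, and each library left out. It was also 0 in the main fit at an unadjusted p under 0.05 with a 1.2-fold change. In edgeR, C1qc had an unadjusted p of 0.0229 without control replicate 2 (log2 fold change 0.477). With the correction and the replicate block together its unadjusted p was 0.0305 (log2 fold change 0.367, adjusted p = 0.273). The count over all genes was 10. It was 99 with DESeq2, 186 with the length and GC correction, 182 with that correction and the replicate block, and 857 at the unadjusted threshold. With 1 library left out it ranged from 8 to 122, with 122 without control replicate 2 and 19 without control replicate 3. The replicate block gave 11.

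The median of the members less that of all genes was 0.0699. It came to 0.0685 under the replicate block, and when a library was left out it ran from -0.0598 without control replicate 1 to 0.23 without control replicate 2. The log2 ratio of summed TPM was 0.267, 0.103 in CPM, and 0.404 without control replicate 2. Of 130 alternative values for single members, 112 kept their direction and 18 reversed, none past the threshold. Tmem119 was at 0.0653 under the length and GC correction, or 0.077 when the block joined it. C1qb was at 0.0465 with the replicate block, 0.183 with the correction and 0.2 with both. Aif1 was at -0.00252 without a filter. With 1 library left out, Csf1r ranged from -0.00887 to 0.182, Tmem119 from -0.189 to 0.244, Aif1 from -0.377 to 0.475, C1qb from -0.213 to 0.374, Trem2 from -0.546 to 0.226 and Tyrobp from -0.105 to 0.545. The cause was not tested. Aif1, Trem2, Tyrobp and Tmem119 had the fewest counts of the members, from 9 to 44 per library.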
